A study of Mus musculus with 5 samples.

Results

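The expression of long intergenic non-coding RNA (lincRNA) regions was followed across 5 cultures of mouse CD4 T cells. These regions are the array features that the design names by genome coordinates, in build mm9, and not by a gene. Every non-control probe whose name starts with a chromosome was taken, except those on X and Y, which gave 15617 probes in 4432 regions (an interval on 1 strand) out of 55681 non-control probes. No measured value entered that choice. A further 577 coordinate-named probes in 178 regions on X were left out, and the remaining 39487 probes served as the comparison.

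All cells started as naive CD4 T cells from the spleen of C57BL/6 mice, with 1 array for each culture. Th1 cells were grown for 4 days with IL-12, IL-2, antibodies that stimulate CD3 and CD28, and anti-IL-4. In the Th1+TGFb culture such Th1 cells then spent 4 days in the induced regulatory T cell (iTreg) medium, which holds TGF-b and IL-2 with anti-CD3/CD28, anti-IFNg and anti-IL-4. In the rested culture Th1 cells were instead kept for 4 days with anti-IFN-g, anti-IL-4 and IL-2. The Th1reg culture was made from rested cells by 4 further days in the iTreg medium, and the iTreg culture from naive cells by 4 days in it. Nothing read here says whether cells of several mice were pooled.

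LincRNAs are transcribed by RNA polymerase II outside protein-coding genes, and many are capped, spliced and polyadenylated like messenger RNAs. As a class they are scarcer than messenger RNAs and more restricted to single cell types. In T helper cells some are known to follow the lineage, such as Ifngas1, which lies beside the interferon-gamma gene and is made in Th1 cells. The array design gives the regions no function, and which genes lie near them was not analysed here, because the gene table used came from another genome build.

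With 1 array for each culture there was no spread between samples and no test, so every difference below is between 2 single arrays, and the number of arrays limits the precision. The signal is given as log2 relative to the array's own 75th percentile, and a difference of at least 2-fold was counted as higher or lower. A probe counted as measured where the scanner software marked it well above background. A probe above background on only 1 of the 2 arrays gave a bound, written as at least N-fold. Probes spotted several times on an array had a median SD of 0.055 to 0.073 log2 units, and of 0.17 to 0.20 for signals under 100. This technical spread says nothing of the spread between cultures.

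The 75th percentile of the signal was 239 on the Th1 array, 198 on Th1+TGFb, 144 on rested, 306 on Th1reg and 271 on iTreg. The lowest signal well above background ran from 16.3 to 21.3, and no spot was saturated. Foxp3, the regulatory T cell factor, was above background only on Th1reg (4.12) and iTreg (5.26). Tbx21, the Th1 factor T-bet, stood at 6.42 on Th1 and 0.58 on iTreg, and the cell division gene Mki67 at 3.34 on rested against 5.11 to 6.88 on the others. Of 6 T cell markers 5 were matched, all above background on every array, while Pax5 of the B cell list and Lyz2 and S100a8 of the myeloid list were above background on none. Other genes of these lists were measured on every array: Cd22 and Cr2 of the B cell list, and Csf1r, Itgam (5.60 to 8.84), Csf3r (7.25 to 9.17) and Siglech (7.61 to 9.45) of the myeloid list, whose summed signal over 9 genes ran from 121185 to 250089. The summed signal of 6 B cell genes ran from 312 to 819, and the 4 of them that could be compared were all higher on rested than on Th1, as were 3 of 5 myeloid genes. Their part in the results below was not tested.

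The lincRNA regions were mostly not measurable. On the Th1 array 4246 probes (27.2%) were above background, on Th1reg 4346 (27.8%), on Th1+TGFb 4799 (30.7%), on rested 5157 (33.0%) and on iTreg 5233 (33.5%). The other probes lay between 52.1% and 53.9% on every array, so as 1 set they had no like drop on Th1 and Th1reg. Some kinds among them did go the way of the lincRNA probes. Probes designed on full-length cDNA clones stood at 36.2% on both Th1 and Th1reg, against 41.4% on rested and 44.6% on iTreg. Probes for RefSeq non-coding RNAs stood at 30.7% on Th1 and 30.3% on Th1reg, against 33.8% on rested and 34.0% on iTreg. Probes for RefSeq messenger RNAs lay between 57.4% and 58.9% on every array. Of the 15617 probes, 8948 were above background on no array and 3161 (20.2%) on all 5, against 38.6% and 44.9% of the other probes.

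**Figure D1:**
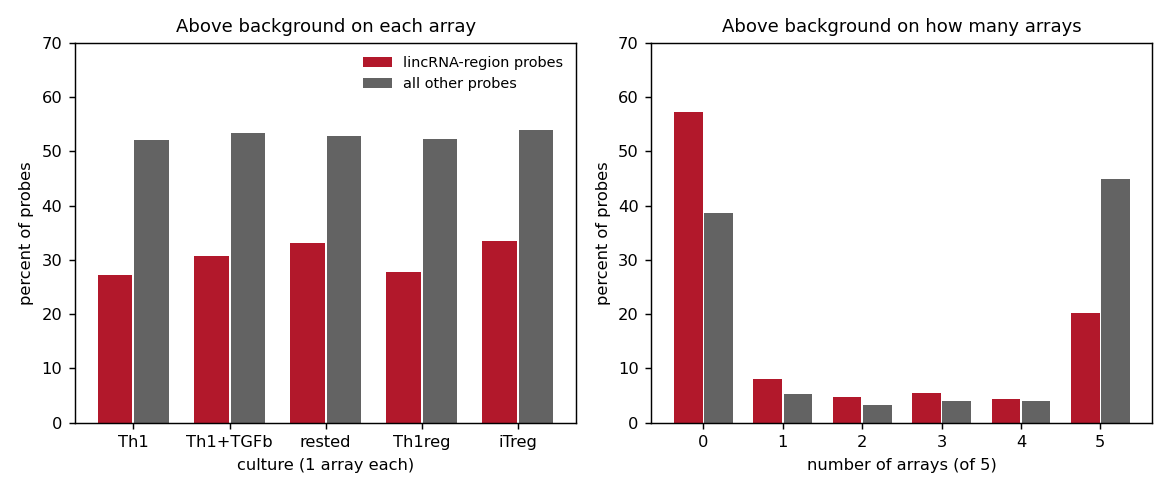
Percent of probes well above background on each array (left) and by the number of arrays on which they were above background (right), for the 15617 lincRNA-region probes (red) and the 39487 other probes (grey). The red bars run from 27.2% on Th1 to 33.5% on iTreg, and 57.3% of the lincRNA-region probes were above background on no array.

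Some lincRNA probes, 1246 (7.98%), were above background in a single culture, as were 2060 (5.22%) of the other probes. The iTreg array alone held 471 such lincRNA probes and the rested array alone 354, against 204 for Th1reg, 120 for Th1+TGFb and 97 for Th1. The split of the other probes over the arrays is not given here. By level, among the 6669 probes above background on at least 1 array, 378 (5.67%) were at least 2-fold higher on rested than on each of the other arrays and 326 (4.89%) were so on iTreg, while the Th1, Th1+TGFb and Th1reg arrays led for 30, 29 and 35 probes. Of the other probes 3.89% were highest on rested and 2.51% on iTreg. The Th1reg array was lowest by 2-fold for 138 lincRNA probes (2.07%, against 1.39% of the other probes) and the rested array for 47 (0.70%, against 5.29%). These counts of highest and lowest depend on the scaling between arrays, described below.

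The regions ran from 62 to 7128487 bp in length, with a median of 10745 bp, and 1 was longer than 1 Mb. They were read by 1 to 10 probes each, with a median of 3. The forward strand carried 2231 regions and the reverse strand 2198, and 3 had no strand in their name. In 1421 regions (32.1%) no probe was above background on any array, and in 1757 at least 1 probe was above background on all 5. With the regions sorted by length into 4 groups, 39.6% of probes were above background somewhere in the shortest group (62 to 1789 bp) and 41.6% to 44.5% in the other 3. At least 1 probe was above background in 58.1% of the shortest regions and in 69.5% to 73.1% of the others.

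The lincRNA probes as a set did not follow the other probes. Relative to Th1, their median log2 difference, over probes measured on both arrays, was 0.27 on iTreg, 0.64 on rested and 0.23 on Th1+TGFb, while that of the other probes was -0.24, -0.27 and -0.21. Th1reg went the opposite way. The lincRNA median was -0.67 against rested, -0.32 against Th1+TGFb and -0.42 against iTreg, where the other probes had 0.26, 0.17 and 0.26. Between the 2 second-step cultures, Th1+TGFb minus rested, the medians were -0.41 and 0.02. The distance between lincRNA and other probes was thus 0.50, 0.91, 0.43, -0.93, -0.49, -0.68 and -0.43 in the 7 comparisons, in the order given.

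**Figure D2:**
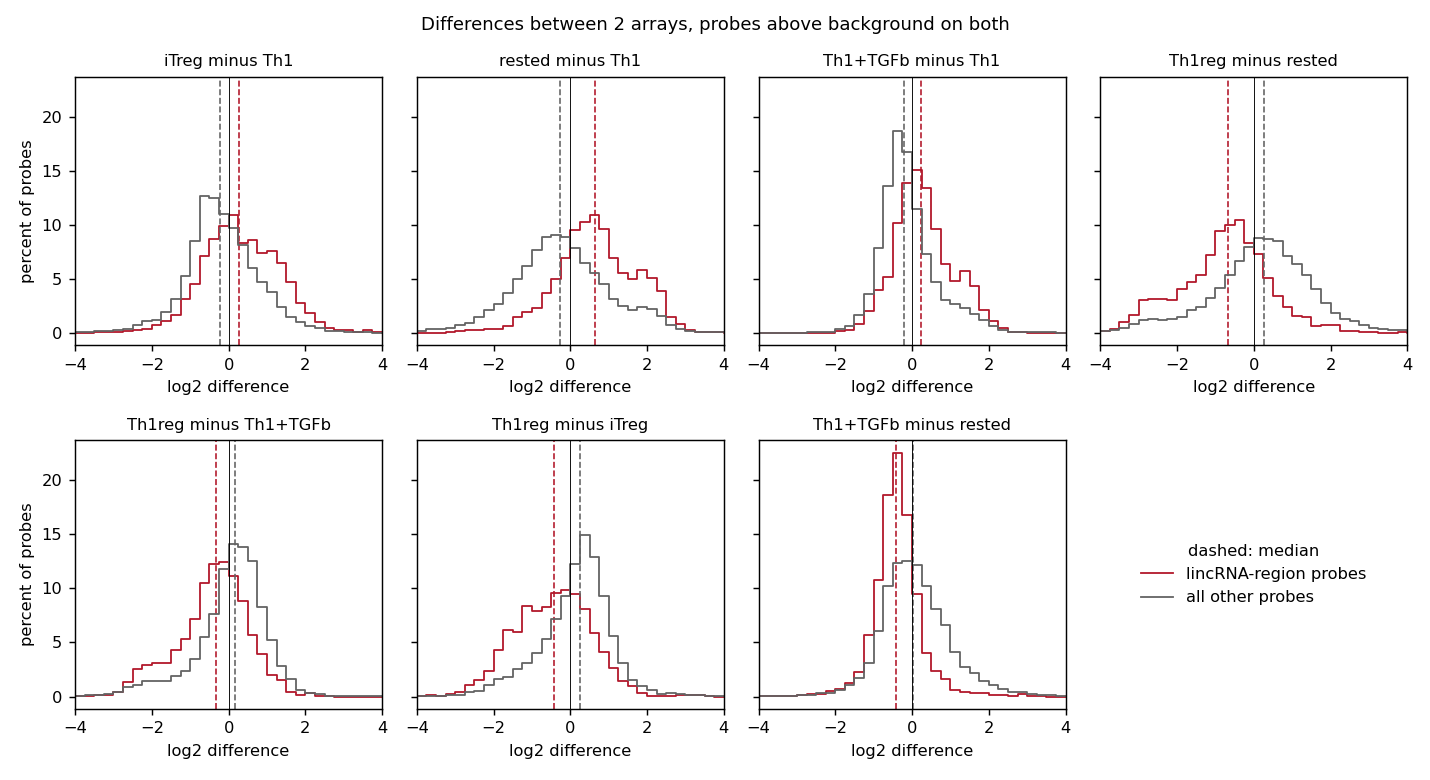
Distribution of log2 differences between 2 arrays for probes above background on both, in each of the 7 comparisons, in percent of probes per bin of 0.25, for lincRNA-region probes (red) and other probes (grey), with dashed lines at the medians. The red curve lies to the right of the grey one in the 3 comparisons with Th1 and to the left of it in the other 4.

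The direction of the lincRNA medians depended on how the arrays were brought to 1 scale. Scaled by the spike-in probes, the lincRNA median turned to -0.52 for rested minus Th1, -0.14 for Th1+TGFb minus Th1, 0.79 for Th1reg minus rested, 0.35 for Th1reg minus Th1+TGFb and 0.39 for Th1+TGFb minus rested. With no scaling these 5 also turned, to -0.09, -0.04, 0.41, 0.31 and 0.05. The iTreg minus Th1 median (0.56 by spike-in probes, 0.45 unscaled) and the Th1reg minus iTreg median (-0.40 and -0.24) kept their direction under every scaling tried. Taking the spike-in probes subtracts 1.16 log2 units from every measured difference of rested minus Th1 and -1.47 from every one of Th1reg minus rested, so the folds printed below hold on the 75th percentile scale. A scaling moves all probes by 1 amount, so the distance from the other probes was the same under each of them. With the normexp background correction in place of the scanner's, that distance was 0.27, 0.72, 0.35, -0.85, -0.46, -0.46 and -0.32. Statements on direction below are on the 75th percentile scale, and which scale stands nearest to the RNA content of the cells was not tested.

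**Figure D3:**
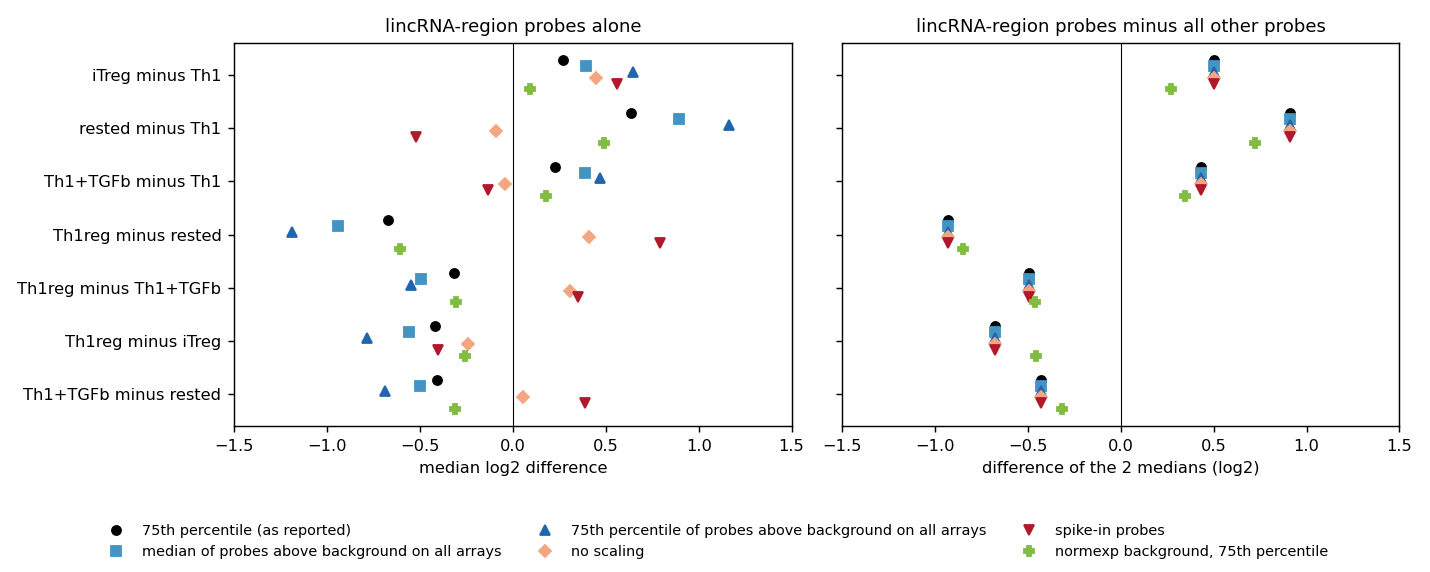
Median log2 difference of the lincRNA-region probes (left) and its distance from the median of the other probes (right) in the 7 comparisons, with 1 marker for each way of scaling or background correction. On the left, spike-in scaling and no scaling lie across the zero line from the other markers in 5 comparisons, while on the right every marker of a comparison lies on 1 side.

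The distance was also unequal along the signal range. For probes with a signal under 50 on the brighter of the 2 arrays, lincRNA and other probes had nearly the same medians, such as 0.62 and 0.58 for rested minus Th1 and -0.80 and -0.79 for Th1reg minus rested. Between 50 and 200 they stood at 0.90 and 0.38, and at -0.80 and -0.46. From 1000 upward the lincRNA medians turned to -0.22 for rested minus Th1, -0.24 for iTreg minus Th1 and 0.10 for Th1reg minus rested, with the other probes at -0.70, -0.50 and 0.66. In these 3 comparisons the bright lincRNA probes did not share the direction of the set. The same held from 1000 upward for Th1reg minus Th1+TGFb (0.15, with the other probes at 0.30) and Th1reg minus iTreg (0.10 and 0.46). It also held for Th1+TGFb minus Th1, where the bright lincRNA and other probes lay close together, at -0.27 and -0.34. Only in Th1+TGFb minus rested did the bright lincRNA probes share the direction of the set, with a median of -0.14.

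**Figure D4:**
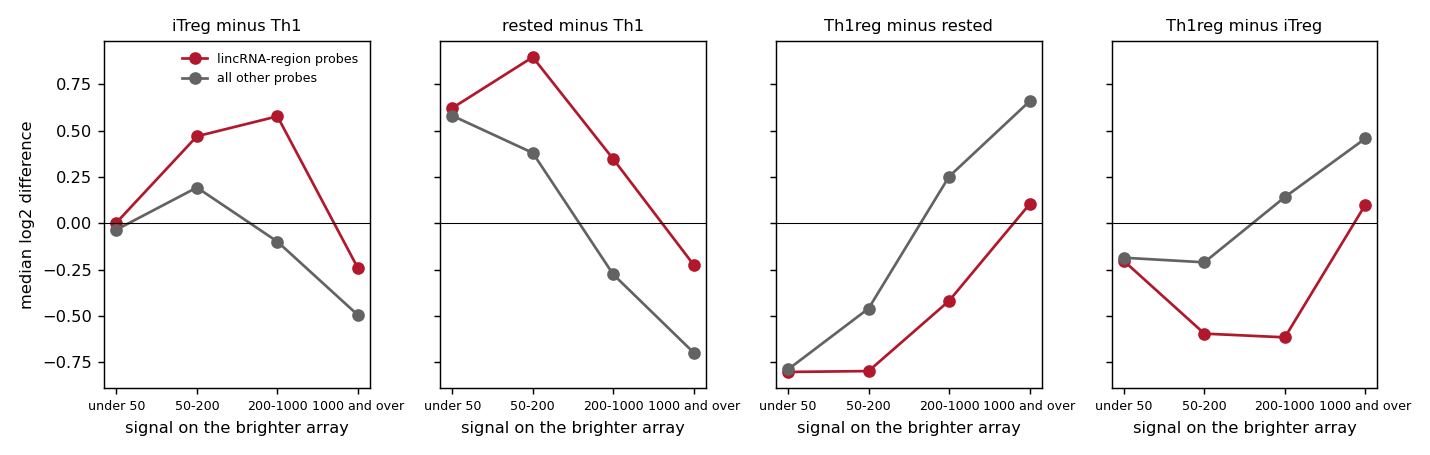
Median log2 difference by signal on the brighter of the 2 arrays in 4 comparisons, for lincRNA-region probes (red) and other probes (grey). The 2 lines nearly meet under a signal of 50 and part above it, and each line ends on the other side of zero from its value between 50 and 200.

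A shift of this kind was not particular to the coordinate-named probes. Probes designed on full-length cDNA clones (AK accessions) had medians of 0.86, 0.88 and 0.37 for iTreg, rested and Th1+TGFb minus Th1, and -0.88, -0.40 and -1.0 for Th1reg minus rested, Th1+TGFb and iTreg. Probes for RefSeq non-coding RNAs lay between, at 0.10, 0.32, 0.05, -0.37, -0.23 and -0.20. Probes for RefSeq messenger RNAs had the opposite sign in all 6, at -0.26, -0.37, -0.25, 0.39, 0.26 and 0.31. The lincRNA shift was looked at by chromosome. For rested minus Th1 the median was above 0 on all 18 chromosomes looked at (chromosome 18 was not among them), from 0.29 on chromosome 17 to 0.87 on chromosome 16, and for Th1reg minus rested below 0 on all 18. For iTreg minus Th1 it was above 0 on 16 and below 0 on 2, with the lowest on chromosome 19 (-0.13).

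The first comparison asks how naive cells differ by the fate they are driven into. Of 5705 lincRNA probes compared, 1603 (28.1%) were higher on iTreg than on Th1 and 443 (7.77%) were lower, against 13.2% and 15.9% of the other probes. By the spike-in probes the split was 2209 to 263, or 89.4% of the differing probes higher in place of 78.3%, and by the 75th percentile of probes seen on all arrays it was 91.5%. Of 487 regions with at least 3 measured probes, every probe was higher on iTreg in 98 and lower in 14. No like count is given here for the other probes, so these region counts and those below have no background.

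The reverse-strand region chr1:175705225-175717250 had the largest measured difference in favour of iTreg. Its probe A_30_P01027543 stood at -2.98 on Th1, 0.20 on Th1+TGFb, 3.94 on rested, 2.40 on Th1reg and 2.43 on iTreg, 42.3-fold higher on iTreg than on Th1. All 5 probes of the region went the same way, with differences of 3.97 to 5.40 log2 units, of which those of A_30_P01022549 and A_30_P01023338 are bounds, since Th1 was not above background there. Th1 was thus the lowest and rested the highest array for each probe of this region.

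Forward-strand regions of chromosome 1 marked the iTreg array. In chr1:139822286-139822985 the probe A_30_P01033082 stood at -2.65 on Th1, -1.36 on Th1+TGFb, -0.54 on rested, -2.51 on Th1reg and 1.40 on iTreg, which is 16.5-fold from Th1 to iTreg. The iTreg array was the highest for all 3 probes of the region. In the nearby chr1:139806645-139809498 the probe A_30_P01032513 was at least 18.7-fold higher on iTreg than on Th1, and stood at 0.57 on iTreg and -2.04 on rested, with no other array above background. The reverse-strand region chr4:46583780-46614788 was read by 1 measurable probe of 2, A_30_P01028951, which was below background on Th1 and rested and stood at -2.03 on Th1+TGFb, 0.50 on Th1reg and 1.19 on iTreg.

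Fewer regions favoured Th1. The forward-strand region chr3:87757295-87774970 held large measured differences in this direction, and its probe A_30_P01018420 stood at 6.31 on Th1, 5.30 on Th1+TGFb, -2.45 on rested, 3.82 on Th1reg and 0.90 on iTreg, 42.4-fold lower on iTreg than on Th1. Its other probes A_30_P01018307, A_30_P01033229 and A_30_P01020627 were 54.6-fold, 48.0-fold and 38.2-fold lower. The fifth probe, A_30_P01026280, did not share this: it stood at 4.43, 3.94, 3.51, 3.92 and 3.57 in the same order of arrays. Within this 1 region, then, 4 probes were high on Th1, Th1+TGFb and Th1reg and low on rested, and 1 was nearly level.

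In chr1:186560855-186563399, on the forward strand, all 3 probes were bright on Th1 and below background on iTreg. A_30_P01019461 stood at 2.54 on Th1, 1.61 on Th1+TGFb, -0.84 on rested and -1.73 on Th1reg and was not above background on iTreg, at least 73.8-fold lower there than on Th1. The other probes were at least 27.9-fold and 27.0-fold lower. Both probes of the forward-strand region chr6:31233512-31241062 were also lower on iTreg, with A_30_P01022038 at 1.36 on Th1 and -2.03 on iTreg (10.5-fold). In chr17:29374758-29387733, by contrast, A_30_P01032951 was 12.2-fold lower while the region's other 2 comparable probes differed by under 1 log2 unit.

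The second comparison sets rested Th1 cells against Th1 cells under stimulation. Of 5639 probes compared, 2372 (42.1%) were higher on rested and 314 (5.57%) lower, against 20.1% and 23.7% of the other probes. This split moved with the scaling: with the spike-in probes 501 were higher and 1532 lower, so that 24.6% of the differing probes were higher in place of 88.3%, and unscaled the share was 55.8%. Of 466 regions with at least 3 measured probes, every probe was higher on rested in 103 and lower in 15.

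The reverse-strand region chr1:175705225-175717250 again led, with A_30_P01027543 121-fold and A_30_P01018824 54.1-fold higher on rested than on Th1, and the 2 probes below background on Th1 at least 84.0-fold and 96.5-fold higher. In the neighbouring chr1:175654606-175672031, also on the reverse strand, A_30_P01031526 stood at -3.29 on Th1 and 2.28 on rested and A_30_P01021838 at -2.61 and 2.65, differences of 47.5-fold and 38.2-fold. Both were lowest on Th1 and highest on rested, as in chr1:175705225-175717250, but the third probe comparable there, A_30_P01017895, did not, with -2.45 on Th1 and -2.49 on rested. The probe A_30_P01030969 of the overlapping chr1:175660642-175671878 was 25-fold higher on rested.

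Other regions were also higher on rested than on Th1. In the reverse-strand region chr7:50403100-50418175 the probe A_30_P01029617 stood at 1.54 on rested and was above background on no other array, at least 36.6-fold higher than on Th1. Another of the region's 5 probes was also at least 2-fold higher on rested, while A_30_P01033219 stood at 0.87 on Th1 and 0.85 on rested. In the reverse-strand region chr19:53517903-53540753 all 10 probes were higher on rested than on Th1 and on Th1reg. Its probe A_30_P01029324 stood at -2.41 on Th1, -1.68 on Th1+TGFb and 1.15 on rested and was not above background on Th1reg or iTreg. In chr15:59966962-59972812, on the reverse strand, A_30_P01017930 was high on rested (1.69) and iTreg (0.88) and low on Th1 (-1.76), Th1+TGFb (-2.74) and Th1reg (-3.03), and 2 further probes had the same 2 high arrays.

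A small group of regions was low on rested. In chr3:87757295-87774970 the probe A_30_P01018420 was 432-fold and A_30_P01020627 390-fold lower on rested than on Th1, and A_30_P01033229 and A_30_P01018307, not above background on rested, were at least 631-fold and 516-fold lower. The level probe A_30_P01026280 differed by -0.91 log2 units. In the reverse-strand region chr12:117623500-117643575 all 5 probes were lower: A_30_P01021644 stood at 1.76 on Th1, 0.53 on Th1+TGFb, -2.77 on rested, 1.20 on Th1reg and 1.12 on iTreg, 23.1-fold lower on rested than on Th1. Rested was the only array on which 3 of these 5 probes were below background. Single probes for chr1:193815525-193825775 and chr17:95149413-95174473, both forward, were 13.4-fold and 12.2-fold lower on rested than on Th1.

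**Figure D5:**
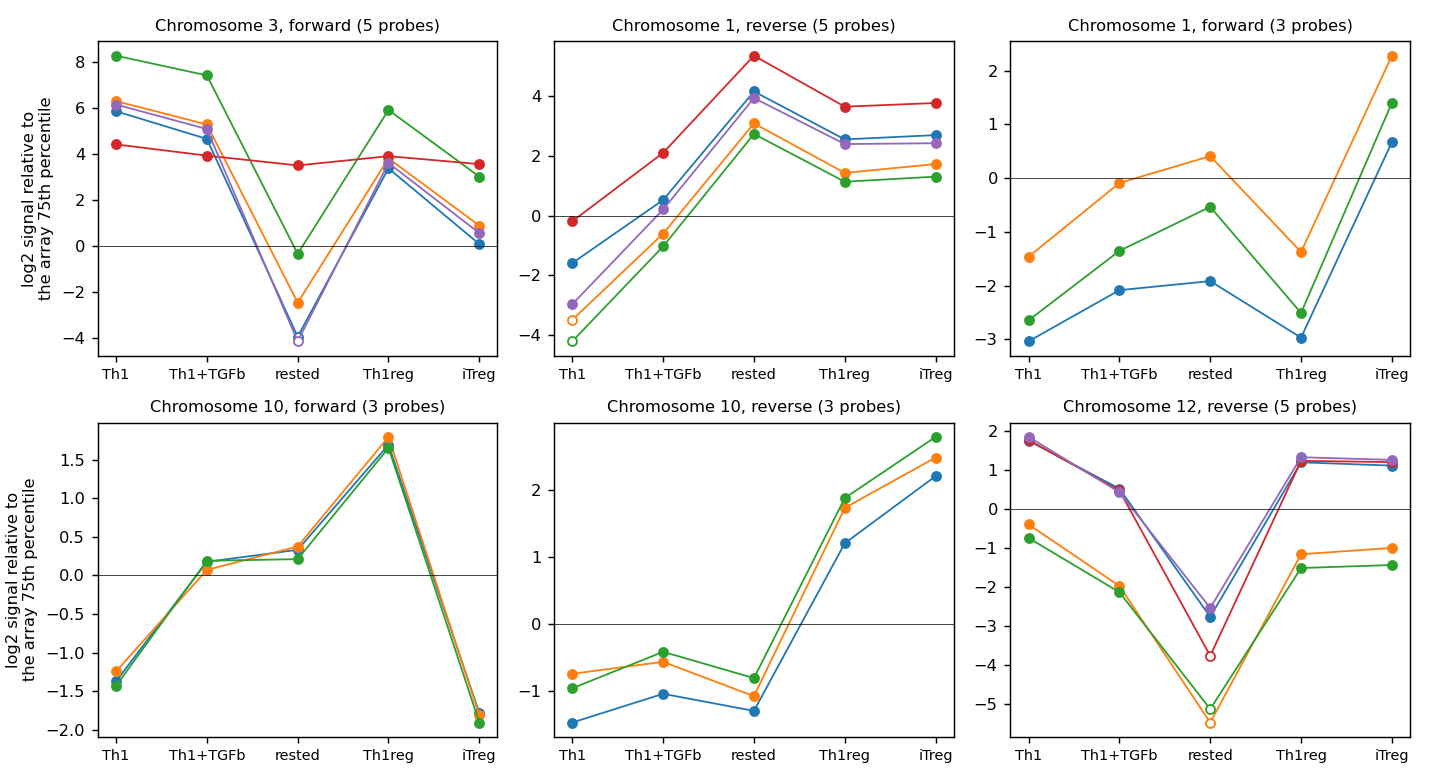
Log2 signal relative to the array's 75th percentile in the 5 cultures for every probe of 6 regions, with 1 line for each probe and open circles where the probe was not above background. In the chromosome 3 region 4 of the 5 probes drop on rested and 1 stays nearly level, while in each of the other 5 regions the probes share their highest array.

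Th1 cells moved directly into the iTreg medium differed less from Th1 cells. Of 5231 lincRNA probes compared, 1159 (22.2%) were higher on Th1+TGFb and 165 (3.15%) lower, against 12.4% and 6.94% of the other probes. Of the differing probes 87.5% were higher, and 60.4% by the spike-in probes or 69.4% unscaled. Every probe was higher in 46 regions and lower in 5, among the 486 with at least 3 measured.

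The forward-strand region chr13:34027900-34052050 was high on the 2 arrays that had gone from a Th1 state into the iTreg medium. Its probe A_30_P01029499 stood at -2.47 on Th1, 0.53 on Th1+TGFb, -2.37 on rested and -0.04 on Th1reg and was below background on iTreg, 7.98-fold higher on Th1+TGFb than on Th1. Its other 2 probes had the same 2 high arrays. On the lower side, all 3 probes of the reverse-strand region chr1:138473514-138476054 were highest on Th1, with A_30_P01025555 at 0.38 on Th1, -1.70 on Th1+TGFb, -1.37 on rested, -3.54 on Th1reg and -1.89 on iTreg (4.22-fold lower on Th1+TGFb). Of the 10 probes of chr14:77006215-77063293, reverse strand, 5 were lower on Th1+TGFb than on Th1. Among them A_30_P01023813 stood at 6.14 on Th1 and 4.32 on Th1+TGFb, but A_30_P01022671 of the same region stood at 2.53 and 3.38.

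Several of the largest differences of Th1+TGFb rested on 1 probe of a region. A_30_P01019010 in chr11:96111499-96126224, reverse strand, stood at 1.66 on Th1, 5.29 on Th1+TGFb, 0.11 on rested, 1.38 on Th1reg and -1.51 on iTreg. A_30_P01021929 in chr9:118291593-118324230, forward strand, stood at 1.59, 4.88, 0.33, 1.16 and 0.20. They were 12.4-fold and 9.74-fold higher on Th1+TGFb than on Th1, yet no other probe of the 4 and 6 in these regions was above background on either array. A_30_P01033147 in chr10:116401772-116404452 was seen on Th1+TGFb alone (0.32), at least 15.7-fold higher than on Th1.

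Resting followed by the iTreg medium gave the largest contrast, Th1reg against its rested precursor. Of 5858 lincRNA probes compared, 322 (5.50%) were higher on Th1reg and 2747 (46.9%) lower, against 24.3% and 22.5% of the other probes. By the spike-in probes 2165 were higher and 616 lower, so the share of differing probes that were higher moved from 10.5% to 77.8%, and to 59.9% unscaled. Of 447 regions with at least 3 measured probes, all probes were lower on Th1reg in 109 and higher in 17.

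Some of the regions that were low on rested were higher again on Th1reg. In chr3:87757295-87774970 the probes A_30_P01018420 and A_30_P01020627 were 76.9-fold and 76.1-fold higher on Th1reg than on rested, and remained below their Th1 values. In chr12:117623500-117643575 all 5 probes were higher, with A_30_P01021644 15.7-fold and A_30_P01031715 14.7-fold, and stood within 1 log2 unit of their Th1 values. In the forward-strand region chr3:40439525-40509975 all 4 probes did the same: A_30_P01027242 stood at -0.31 on Th1, -0.76 on Th1+TGFb and 0.15 on Th1reg, was below background on rested, and stood at -3.14 on iTreg. The rested and iTreg arrays thus shared a low level of this region. Other regions low on rested were not higher on Th1reg: in chr1:138473514-138476054 both comparable probes were lower still, in chr1:186560855-186563399 1 of 2 was lower, and in chr6:31233512-31241062 neither of 2 differed by 2-fold.

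The regions named for a high level on rested held probes that were lower on Th1reg. All 10 probes of chr19:53517903-53540753 were lower, A_30_P01029324 by at least 31.9-fold, and 3 probes of chr15:59966962-59972812 were lower, A_30_P01017930 by 26.5-fold. In chr7:50403100-50418175, A_30_P01029617 was at least 41.7-fold lower. All 5 probes of chr1:175705225-175717250 were lower on Th1reg than on rested too, but stayed above Th1, with A_30_P01027543 at 2.40 on Th1reg against 3.94 on rested and -2.98 on Th1.

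A further group of probes shared 1 profile, highest on rested, next on Th1+TGFb, then iTreg, and lowest on Th1reg, with uneven support from the other probes of their regions. A_30_P01023608 in chr14:52864224-52878449 stood at 0.50 on Th1, 2.97 on Th1+TGFb, 4.06 on rested, -1.15 on Th1reg and 1.55 on iTreg, 36.9-fold lower on Th1reg than on rested, and the region's other comparable probe was lower as well. A_30_P01023736 in chr5:125205454-125209470 stood at 1.90, 4.73, 5.86, 0.69 and 3.23, and A_30_P01025347 in chr8:108153471-108159672 at -2.27, 1.07, 1.96, -3.29 and -0.17, all on the forward strand. The chromosome 5 probe was the only one of 3 in its region above background on Th1reg or rested. In the chromosome 8 region 2 of 3 comparable probes were lower on Th1reg than on rested, while A_30_P01026531 stood at -3.13, -2.76, -2.63 and -2.94 on the first 4 arrays and differed by under 2-fold.

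The next comparison asks what the resting step adds before the iTreg medium. Of 5481 probes, 262 (4.78%) were higher on Th1reg than on Th1+TGFb and 1626 (29.7%) lower, against 11% and 16.1% of the other probes. The share of differing probes that were higher was 13.9%, but 58.2% by the spike-in probes and 54.8% unscaled. Every probe was lower in 53 and higher in 10 of the 451 regions with at least 3 measured probes.

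Among the few regions higher on Th1reg, chr10:94870971-94871658, reverse strand, separated the 2 arrays with Foxp3 from the others. A_30_P01026073 stood at -0.75 on Th1, -0.57 on Th1+TGFb, -1.08 on rested, 1.73 on Th1reg and 2.48 on iTreg, 4.91-fold higher on Th1reg than on Th1+TGFb. The other 2 probes were 4.90-fold and 4.74-fold higher. The 3 probes of the forward-strand region chr14:115443612-115445950 were also highest on these 2 arrays, with A_30_P01033133 at 0.33, -0.59, -0.55, 1.64 and 2.34. For both regions the Th1reg and iTreg arrays stood above the other 3 at every probe.

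Lower on Th1reg was the forward-strand region chr2:52241435-52245307, where A_30_P01033485 stood at -1.53 on Th1 and -0.18 on Th1+TGFb and was below background on rested, Th1reg and iTreg. It was at least 12.7-fold lower on Th1reg than on Th1+TGFb, and 1 of the region's other 2 probes, A_30_P01025928, stood at -0.51 on Th1, 0.74 on Th1+TGFb and -2.57 on Th1reg. The region chr1:138579972-138587381, with a single probe A_30_P01024637 on the forward strand, stood at 0.67 on Th1, 0.85 on Th1+TGFb and 0.94 on rested and was below background on Th1reg and iTreg, at least 25.9-fold lower on Th1reg than on Th1+TGFb. That probe was therefore absent above background from exactly the 2 arrays with Foxp3, while chr10:94870971-94871658 was high on them.

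Th1reg was also set against iTreg, the other culture with Foxp3. Of 5781 probes compared, 368 (6.37%) were higher on Th1reg and 1917 (33.2%) lower, against 13.7% and 14.9% of the other probes. The share of differing probes that were higher was 16.1%, and 16.8% by the spike-in probes and 24.9% unscaled, but 6.00% by the 75th percentile of probes seen on all arrays. Of 502 regions with at least 3 measured probes, all probes were lower on Th1reg in 112 and higher in 13.

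The forward-strand region chr10:83185606-83225506 was highest on Th1reg and lowest on iTreg. A_30_P01032460 stood at -1.25 on Th1, 0.07 on Th1+TGFb, 0.38 on rested, 1.80 on Th1reg and -1.81 on iTreg, 12.2-fold higher on Th1reg than on iTreg, and the other 2 probes were 11.8-fold and 11.2-fold higher. The 5 probes of the overlapping chr10:83181374-83249774 had the same highest array, with A_30_P01033518 9.66-fold higher on Th1reg than on iTreg. In the opposite direction, the probes of chr1:139822286-139822985 were 12.4-fold to 15-fold lower on Th1reg, and A_30_P01022208 of chr1:139795171-139796306 was 13.2-fold lower. In this group of regions Th1reg stood at the Th1 level, -2.51 against -2.65 for A_30_P01033082.

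The last comparison, Th1+TGFb against rested, sets the 2 second steps from Th1 side by side. Of 5587 probes, 176 (3.15%) were higher on Th1+TGFb and 751 (13.4%) lower, against 15.1% and 9.02% of the other probes. The share of differing probes that were higher was 19%, against 87.2% by the spike-in probes, 64.1% unscaled and 36.9% with the normexp background correction. At 2-fold on the scale used here, this comparison had the smallest set of differing lincRNA probes of the 7. Th1+TGFb minus Th1 had a smaller one at 1.5-fold, at 4-fold and by the 75th percentile of probes seen on all arrays. The region chr3:87757295-87774970 led again, with A_30_P01020627 215-fold and A_30_P01018420 214-fold higher on Th1+TGFb than on rested. All 5 probes of chr1:175705225-175717250 were lower on Th1+TGFb, A_30_P01023338 by 13.7-fold and A_30_P01027543 by 13.4-fold.

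The comparisons share arrays, Th1 in 3 of them, rested in 3, Th1+TGFb in 3, Th1reg in 3 and iTreg in 2, so they are not independent of each other. Over the 3161 probes measured on all 5 arrays, the range from the lowest to the highest array had a median of 1.40 log2 units. It reached at least 1 in 2245 probes (71.0%) and at least 2 in 897 (28.4%). The widest was 8.75, for A_30_P01018420, and the narrowest 0.12, for A_30_P01017865 in the forward-strand region chr6:112552041-112560067, which stood at 4.25 on Th1, 4.13 on Th1+TGFb, 4.19 on rested, 4.14 on Th1reg and 4.15 on iTreg. A second probe of that region, A_30_P01031371, was as steady, at 2.88, 2.76, 2.82, 2.75 and 2.80. Another of the region's 6 comparable probes was at least 2-fold lower on iTreg than on Th1, and such narrow ranges hold on the 75th percentile scale alone.

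Probes of 1 region and strand share a named interval and are not replicates. Whether they read 1 transcript was not tested. They do show whether a difference is shared within the region or belongs to 1 probe. Where 1 probe of a region differed at least 2-fold, another measured probe of the same region had the same sign in 89.8% to 94.7% of cases over the 7 comparisons, and differed 2-fold the opposite way in 0.42% to 2.40%. Over all pairs of probes of 1 region the sign was shared in 76.2% to 82.6%, where the share of each sign alone gives 52.7% to 68.0%. Among the other probes that share 1 accession, partners of a probe differing 2-fold had the same sign in 87.8% to 94.6%. Over all pairs of such probes the sign was shared in 78.8% to 84.7%. In regions with at least 3 probes, between 53.7% and 73.2% of the differing probes had another probe that differed the same way, and 8.59% to 14.1% had no other probe above background on either array. For the 6 probes at least 8-fold apart between Th1+TGFb and Th1 only 1 had such support, against 56 of 61 for iTreg and Th1 and 188 of 221 for Th1reg and rested.

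The 2 strands of an interval were less alike. The design covers both strands of 1042 intervals. In 280 of them both strands had a probe above background on all 5 arrays, in 182 only the forward and in 245 only the reverse strand, and in 335 neither. Where both strands could be compared, their mean differences had the same sign in 53.4% of 337 intervals for iTreg minus Th1, 70.5% of 356 for rested minus Th1 and 73.9% of 333 for Th1reg minus rested. For the neighbouring regions treated below, the share of each sign alone gives 52.1%, 67.0% and 67.9% in these comparisons. No such share is given here for the strands themselves. Both strands differed 2-fold the same way in 16, 47 and 47 of these intervals and in opposite ways in 6, 6 and 6. For chr1:175705225-175717250 the forward strand was above background at 4 of its 5 probes on rested, at 1 on iTreg and at none on the other 3 arrays.

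Neighbouring regions were less alike than probes of 1 region. Of 3547 pairs of regions within 100 kb that do not overlap, 738 to 960 could be compared in each comparison, and their mean differences had the same sign in 60.4% to 75.9%, where the share of each sign alone gives 52.1% to 71.6%. For Th1reg minus rested 177 pairs were both lower and 3 both higher. The pair chr7:80762708-80763274 on the reverse and chr7:80763588-80764230 on the forward strand, 313 bp apart, differed by a mean of -1.23 and -1.03 for Th1reg minus iTreg, with 3 probes each. The pair chr5:121765763-121768660 and chr5:121768672-121772658, 11 bp apart on the forward strand, differed by 1.71 and -1.03, with 1 probe each. These 2 regions, again by 1 probe each, were also opposite for Th1reg minus rested (1.34 and -0.73) and alike for Th1+TGFb minus rested (-0.56 and -0.60). Over all pairs compared for Th1reg minus iTreg, 102 were both lower, 2 both higher and 19 opposite, so closeness alone did not fix the direction.

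Annotated long non-coding RNA genes on the same arrays gave a mixed picture. Of 37 genes listed, 25 had a probe that could be matched by RefSeq accession, and 20 or 21 were above background on each array. On iTreg relative to Th1, 7 of 21 were higher and 5 lower, and on rested 6 of 22 were higher and 8 lower. For Th1+TGFb minus Th1 3 of 22 were higher and 5 lower, and the counts were the same for Th1+TGFb minus rested. For Th1reg they were 6 higher and 8 lower of 22 against rested, 6 and 4 of 21 against Th1+TGFb, and 2 and 6 of 20 against iTreg. Only in the last was the median of the genes, bounds included, near that of the coordinate-named probes, at -0.44 beside -0.42. It was 0.03 beside 0.27 for iTreg minus Th1, 0.02 beside 0.64 for rested minus Th1 and -0.33 beside 0.23 for Th1+TGFb minus Th1. For Th1reg minus rested it was -0.10 beside -0.67, for Th1reg minus Th1+TGFb -0.12 beside -0.32, and for Th1+TGFb minus rested -0.29 beside -0.41.

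Among the imprinted genes, H19 stood at -1.13 on Th1 and 4.38 on iTreg, 45.8-fold higher, and Kcnq1ot1 and Airn, the antisense transcripts of imprinted clusters, were 5.06-fold and 5.54-fold higher on iTreg than on Th1. Peg13 stood at -1.99 on Th1, -0.11 on Th1+TGFb, 2.36 on rested, -0.33 on Th1reg and 0.19 on iTreg, 20.4-fold higher on rested than on Th1. Mir17hg, the host transcript of the miR-17 cluster, stood at 1.44, 0.52, 0.59, 2.66 and 3.36, highest on Th1reg and iTreg. Of 5 matched host genes of small nucleolar RNAs 4 were lower on rested than on Th1, among them Snhg3 by 4.64-fold and Snhg6 by 3.66-fold, while Snhg5 differed by -0.73 log2 units. The nuclear transcripts Malat1 and Neat1 were 4.15-fold and 2.16-fold lower on rested than on Th1.

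Ifngas1 stood at -1.85 on Th1 and -0.67 on rested and was not above background on Th1+TGFb, Th1reg or iTreg, although Ifng itself stood at 10.23 on Th1, 9.56 on Th1+TGFb, 2.79 on rested, 8.37 on Th1reg and 1.27 on iTreg. Flicr, a non-coding RNA of the Foxp3 locus, stood between -2.45 and -1.98 on the 4 arrays where it was above background, Th1 and rested included. Neither of these followed its neighbouring protein-coding gene across the arrays.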

How the data were processed

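RNA of each culture was labelled with Cy3 and read on 1 array of a 1-colour Agilent design with mm9 coordinates. Per the file headers and the submitters' processing notes, the authors deposited the output of Agilent Feature Extraction 10.7.1.1, whose processed signal is an intensity with background subtracted. The detection calls (well above background, positive and significant, outlier, control) are 0 or 1 flags per the file headers. The deposited value table holds an intensity equal to the processed signal over 1 constant for each array.

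Control spots and 109 to 142 outlier spots an array were left out, which left 4 lincRNA probes without a value on 1 array. Spots of a probe were averaged, divided by the array's 75th percentile and put on a log2 scale, and dim probes were set to at least the lowest signal well above background before bounds were taken. Genes were matched by RefSeq accession to a table of assembly GRCm38.p6, used for names only, which named 28331 probes, and the brightest probe stood for a gene.

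In each comparison the 6 largest measured differences and the 4 largest bounds each way could be named, with the 10 widest and 5 narrowest ranges, the 3 best single-array probes an array, up to 5 regions and up to 5 neighbouring pairs. Other probes of those regions are named beside them. Regions on chromosome 18 are counted and not named. The members, lists and rules were chosen with earlier results of these data known. The files held no mean signal, so normexp (offset 50, limma 3.58.1) ran on the median signals. 1 gene of the marker lists is not reported here. Probe sequences are not used here. The main work was done with Python 3.11.15, numpy 2.4.6 and pandas 2.3.3, and the steps were tested on simulated data.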

Additional observations from a re-analysis of the deposited data

Results flagged for a closer look

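The same medium, iTreg medium for 4 days, was given to Th1 cells directly and to Th1 cells after a rest, and the lincRNA probes went opposite ways against the respective precursor. Their median log2 difference was 0.225 for Th1+TGFb minus Th1 and -0.673 for Th1reg minus rested. The difference between these was not tested, since each rests on 2 single arrays. Of 4891 lincRNA probes compared in both, 1003 were at least 2-fold higher in the first and lower in the second, 72 the reverse, 26 higher in both and 18 lower in both. No such counts are given here for the other probes, so these have no background. With the spike-in probes both medians turned, to -0.14 and 0.79, and so remained opposite. Against the other probes the medians stood at 0.43 and -0.93. Probes designed on full-length cDNA clones also went opposite ways, at 0.37 and -0.88, so this was not particular to the lincRNA probes. The 2 comparisons start from precursors that themselves differ, rested minus Th1 having a median of 0.64, and the medium's part and the starting level's part cannot be told apart.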

How the results depend on the processing

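With 1 array for each culture no replicate could be left out, and no paired analysis was possible because each group has a single sample. The scaling decided the direction of the lincRNA probes as a set in the 5 comparisons named above, and the cause was not tested. Of 140 probe differences named by the rule, none changed sign under 7 alternatives, nor did the 84 measured ones under the eighth, probes above background on both arrays. These differences were picked for their size, so their signs could hardly change. They do not speak for the other lincRNA probes. Whole regions were not run. The sizes moved by more than the SD of repeated spots for 136 of the 140 with normexp, 124 with the 75th percentile of probes seen on all arrays, 120 with the spike-in probes, 116 unscaled, 72 with the median of probes seen on all arrays and 35 without a floor. The deposited value table left every count within 1.5 times. Dim probes limit what could be seen: 8948 of 15617 lincRNA probes were well above background on no array. By the positive and significant flag 8778 probes were detected on Th1, 9379 on Th1+TGFb, 9795 on rested, 8823 on Th1reg and 9513 on iTreg. A signal of at least 2 times the lowest signal above background gave 3060 to 3931. The counts below moved by over 1.5 times and the others did not. At a threshold of 1.5-fold, the counts became 2499 higher and 925 lower for iTreg minus Th1, 541 lower for rested minus Th1, 1967 higher and 504 lower for Th1+TGFb minus Th1, 561 higher for Th1reg minus rested, 667 higher for Th1reg minus Th1+TGFb, 783 higher and 2889 lower for Th1reg minus iTreg, 365 higher and 2123 lower for Th1+TGFb minus rested. At 4-fold, the counts became 280 higher and 82 lower for iTreg minus Th1, 686 higher and 88 lower for rested minus Th1, 127 higher and 6 lower for Th1+TGFb minus Th1, 79 higher and 1044 lower for Th1reg minus rested, 30 higher and 476 lower for Th1reg minus Th1+TGFb, 53 higher and 368 lower for Th1reg minus iTreg, 60 higher and 83 lower for Th1+TGFb minus rested. Scaled by the 75th percentile of probes seen on all arrays, the counts became 2411 higher and 225 lower for iTreg minus Th1, 151 lower for rested minus Th1, 74 lower for Th1+TGFb minus Th1, 163 higher for Th1reg minus rested, 161 higher for Th1reg minus Th1+TGFb, 177 higher for Th1reg minus iTreg, 1571 lower for Th1+TGFb minus rested. Scaled by the median of those probes, the counts became 98 lower for Th1+TGFb minus Th1. Scaled by the spike-in probes, the counts became 263 lower for iTreg minus Th1, 501 higher and 1532 lower for rested minus Th1, 678 higher and 444 lower for Th1+TGFb minus Th1, 2165 higher and 616 lower for Th1reg minus rested, 1045 higher and 752 lower for Th1reg minus Th1+TGFb, 784 higher and 115 lower for Th1+TGFb minus rested. Without scaling, the counts became 1066 higher and 846 lower for rested minus Th1, 364 lower for Th1+TGFb minus Th1, 1448 higher and 969 lower for Th1reg minus rested, 965 higher and 796 lower for Th1reg minus Th1+TGFb, 394 higher and 221 lower for Th1+TGFb minus rested. With the normexp background correction, the counts became 424 higher and 192 lower for iTreg minus Th1, 988 higher and 162 lower for rested minus Th1, 231 higher and 60 lower for Th1+TGFb minus Th1, 160 higher for Th1reg minus rested, 86 higher and 679 lower for Th1reg minus Th1+TGFb, 128 higher and 613 lower for Th1reg minus iTreg, 92 higher and 157 lower for Th1+TGFb minus rested. Without a floor for dim probes, the counts became 272 lower for Th1+TGFb minus Th1, 544 higher for Th1reg minus rested, 487 higher for Th1reg minus Th1+TGFb, 557 higher for Th1reg minus iTreg, 270 higher for Th1+TGFb minus rested. Over probes above background on both arrays, the counts became 989 higher for iTreg minus Th1, 1340 higher for rested minus Th1, 723 higher for Th1+TGFb minus Th1, 1369 lower for Th1reg minus rested, 170 higher and 859 lower for Th1reg minus Th1+TGFb, 230 higher and 1165 lower for Th1reg minus iTreg, 111 higher and 494 lower for Th1+TGFb minus rested. Counted by region, the counts became 434 higher and 145 lower for iTreg minus Th1, 723 higher and 97 lower for rested minus Th1, 379 higher and 36 lower for Th1+TGFb minus Th1, 82 higher and 752 lower for Th1reg minus rested, 56 higher and 491 lower for Th1reg minus Th1+TGFb, 113 higher and 541 lower for Th1reg minus iTreg, 49 higher and 206 lower for Th1+TGFb minus rested.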

Other observations

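Some stretches of the genome held several coordinate-named regions that favoured the same array. They were chosen after their values were seen, and the regions of a stretch overlap or neighbour each other. On chromosome 1 between 139713316 and 139913366 (mm9), 9 regions with 37 probes had 22 probes above background on some array, all 22 of them on iTreg. On the other arrays 8 (Th1), 10 (Th1+TGFb), 16 (rested) and 9 (Th1reg) were above background. Of 22 probes compared, 17 were higher on iTreg than on Th1 and none lower, and 18 were lower on Th1reg than on iTreg and none higher. In chr1:139847592-139848243 all 3 probes were above background on iTreg alone. A further stretch, chromosome 1 between 138442536 and 138632310, held 18 regions with 78 probes and was mixed. Of 32 probes compared there, 2 were higher on iTreg than on Th1 and 6 lower. Of 29 compared, 2 were higher on rested than on Th1 and 5 lower. Th1reg was below rested in 12 of 24 probes and above it in none.

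On chromosome 1 between 175653557 and 175717250, 6 regions on both strands had 16 of 26 probes above background somewhere. Rested exceeded Th1 in 13 of 15 probes compared and Th1reg was below rested in 14 of 14. On chromosome 10 between 83181374 and 83249918, 5 overlapping regions had 21 of 22 probes above background somewhere. The 8 probes of the 2 regions chr10:83181374-83249774 and chr10:83185606-83225506 on the forward strand were higher on Th1reg than on iTreg, and none of the other 9 compared there was. Whether several designs in these windows read 1 transcript, and the part of that in the counts, was not tested.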
